A study of Mus musculus with 2 samples.

Results

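The neutrophils of mouse colon adenomas were selected on measured values, as the cells that the authors had typed as myeloid and that met 3 conditions. They held at least 1 UMI (a unique molecular identifier, counted once per captured transcript) of Csf3r, the receptor for the neutrophil growth factor G-CSF. They held UMIs of fewer than 2 of the 3 complement genes C1qa, C1qb and C1qc, which mark tissue macrophages, and none of Flt3, a growth factor receptor of dendritic cells. This gave 2330 of 14097 cells, out of 8278 myeloid cells. Of these, 668 lay in the CIN_high class and 1662 in the CIN_low class.

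The cells came from distal colon adenomas of mice of the strain Apcmin;LSL-mTERT at an age of 25 weeks, and were profiled on the 10x Genomics droplet platform. In Apcmin mice 1 inherited copy of Apc, which restrains Wnt signals, is cut short, and the gut forms adenomas; all samples share this allele and the LSL-mTERT allele, a conditional copy of mouse Tert. The study names a G0+T and a G4+T adenoma sample, with 1 library each; the sources used here name neither the Cre driver nor the number of mice per library. The authors' class file puts every cell of one library in CIN_high and every cell of the other in CIN_low, CIN standing for the chromosomal instability of the study's title. The library numbers in the cell names match the sample titles, but the prefix of all cell names matches only the G0+T title, so the comparison is CIN_high against CIN_low, with no claim as to which class is G0+T and which G4+T. As each class is a single library, there is no replicate check and no p-value, and a difference between the classes cannot be told apart from one between mice, pieces of tissue or preparations. Intervals are exact 95% intervals and cover counting error only.

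Neutrophils are short-lived white cells made in the bone marrow. As they mature they make their granules in a set order: primary granules with myeloperoxidase and elastase first, secondary granules with lactoferrin (Ltf), cathelicidin (Camp) and Ngp next, and tertiary granules and secretory vesicles last. Mature cells follow chemokines such as Cxcl1 and Cxcl2 through the receptor Cxcr2 into inflamed tissue and tumours, where they can release interleukin 1 and chemokines of their own. The calcium-binding pair S100a8 and S100a9, which together form calprotectin, makes up a large part of their RNA and protein.

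The label was checked against markers that the rule had not used. S100a8 averaged 621 UMIs per 10000 UMIs of the cell in CIN_high neutrophils and 716 in CIN_low neutrophils, and S100a9 averaged 750 and 864. Together they took 13.1% of all UMIs from CIN_high neutrophils, against 15.5% of all UMIs from CIN_low neutrophils. Retnlg, a resistin-like secreted protein of mouse neutrophils, averaged 250 UMIs per 10000 in CIN_high and 309 in CIN_low neutrophils. Against the remaining myeloid cells of the same library, S100a8 was 33.7-fold higher in CIN_high and 8.29-fold higher in CIN_low neutrophils. The neutrophil surface antigen Ly6g averaged 5.45 and 5.51 UMIs per 10000 in CIN_high and CIN_low neutrophils, 41.9-fold and 8.45-fold above the other myeloid cells. These folds follow partly from the Csf3r condition and are given as a description.

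The rule did not give a pure set. Calprotectin split the members into a large group above and a small group below 200 UMIs per 10000, a value chosen after the distribution was seen. At or above it lay 540 of 668 CIN_high neutrophils (80.8%, 77.6% to 83.8%) and 1450 of 1662 CIN_low neutrophils (87.2%, 85.5% to 88.8%), and 34 CIN_high and 64 CIN_low cells lay between 100 and 400. The cells below it, 128 in CIN_high and 212 in CIN_low, carried genes of monocytes and macrophages. In them Ccr2, the chemokine receptor of inflammatory monocytes, stood at 5.49 (CIN_high) and 4.64 (CIN_low) UMIs per 10000, against 0.0817 and 0.0811 in the cells above. The lipid carrier Apoe stood at 55.4 (CIN_high) and 29.2 (CIN_low) below the value, against 2.27 and 2.60 above it, and Cxcr2 at 4.04 and 1.72, against 19.0 and 12.3. The cells below were also deeper, with medians of 5390 (CIN_high) and 7321 (CIN_low) UMIs, against 3035 and 4084.5 UMIs above. The 12 macrophage genes listed summed to 15.7 UMIs per 10000 in CIN_high and 8.35 in CIN_low neutrophils, and to 3.34 and 3.66 in the cells at or above 200. The highest sum in any neutrophil was 486.4 (CIN_high) and 244 (CIN_low), and of the 12 genes only Folr2 was at 0. By the 1.5-fold line set out below, 4 of 10 measured macrophage genes were higher in CIN_high and 1 lower. Over all measured genes 23.5% were higher and 5.4% lower. Monocyte markers summed to 12.6 (CIN_high) and 11.0 (CIN_low), with 2 of 7 higher in CIN_high, near the share over all genes. Epithelial markers summed to 1.93 and 2.75, with 4 of 7 lower in CIN_high, against 107 and 98.4 in epithelial cells. The lists of dendritic cells, eosinophils, endothelial, T or NK and red blood cells had 0 measured genes in neutrophils, and those of fibroblasts, B lineage cells and mast cells or basophils 1 each (Pdpn, Jchain and Kit, log2 ratios -0.27, -3.44 and 0.72). A gene that is not measured can still have UMIs in a few cells. Red blood cell genes had UMIs in 0% of CIN_high and 0.722% of CIN_low neutrophils, and their highest sum in a CIN_low cell was 4281.6 UMIs per 10000. The part of these cells in the results was not tested beyond the values without the low-calprotectin cells.

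**Figure D1:**
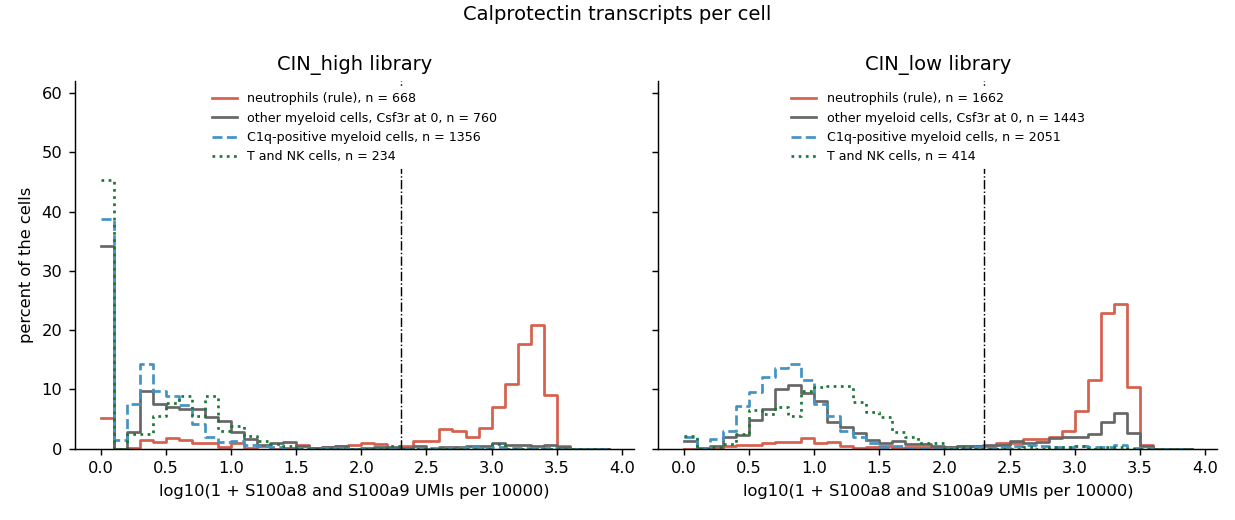
Calprotectin transcripts per cell in the CIN_high library (left) and the CIN_low library (right); the x axis is the log10 of 1 plus the S100a8 and S100a9 UMIs per 10000, the y axis the percent of cells of each kind, and the dash-dotted line marks 200 UMIs per 10000. Most neutrophils form a peak right of the line (80.8% in CIN_high, 87.2% in CIN_low), C1q-positive myeloid cells and T and NK cells lie mostly left of it, and among myeloid cells with Csf3r at 0 a second peak right of the line is visible in the CIN_low library.

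The rule also missed cells. Among myeloid cells with Csf3r at 0 and fewer than 2 C1q genes, 43 of 760 CIN_high cells (5.66%) and 384 of 1443 CIN_low cells (26.6%) reached 200 calprotectin UMIs per 10000. Just inside the Csf3r threshold, at 1 UMI, 94 of 195 CIN_high cells (48.2%) and 468 of 634 CIN_low cells (73.8%) reached it, and with 3 or more Csf3r UMIs 340 of 349 (97.4%) and 617 of 626 (98.6%) did. At the C1q threshold, 76 of 99 CIN_high members with 1 C1q gene reached 200 (76.8%) and 274 of 339 CIN_low members (80.8%). Just outside it, with 2 C1q genes, 9 of 26 CIN_high cells (34.6%) and 36 of 70 CIN_low cells (51.4%) did.

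Neutrophils made up a smaller share of the CIN_high library. They were 668 of 6189 CIN_high cells, or 10.8% (10.03% to 11.6%), and 1662 of 7908 CIN_low cells, or 21.0% (20.1% to 21.9%), a share 1.95-fold lower in CIN_high. Among myeloid cells alone they were 22.8% (21.3% to 24.4%) in CIN_high and 31.1% (29.8% to 32.3%) in CIN_low, 1.36-fold lower. With calprotectin at 200 required as well, the share of all cells was 8.73% in CIN_high and 18.3% in CIN_low (2.1-fold lower). With calprotectin in place of the Csf3r condition it was 9.42% and 23.2% (2.46-fold lower). For these 3 definitions the intervals of the classes did not overlap. A share of all cells also depends on the other cells of the library. Fibroblasts numbered 966 in CIN_high and 21 in CIN_low, endothelial cells 602 and 247, and epithelial cells 1316 and 1725. Among immune cells alone (myeloid, T and NK, and B cells) neutrophils were 20.8% in CIN_high and 28.4% in CIN_low, 1.36-fold lower. A share of cells depends on how the tissue was cut and dissociated, which was not tested.

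CIN_high neutrophils were shallower, with a median of 3147 UMIs and 962 genes per cell against 4217 UMIs and 1031 genes in CIN_low neutrophils, from totals of 2320300 and 7727086 UMIs. Mitochondrial transcripts took a median of 1.61% and 1.07% of their UMIs. Scrublet, which scores likely doublets, marked 4 CIN_high and 35 CIN_low neutrophils, and 2 neutrophils had a barcode found in both libraries, of 11 such barcodes in all. UMIs of S100a8 outside neutrophils were more frequent in the CIN_low library: after thinning to 1500 UMIs per cell, 15.3% of CIN_high and 51.2% of CIN_low T and NK cells, which do not make S100a8 themselves, held a UMI of it. In neutrophils thinned alike the shares were 85.06% and 93.8%, and unthinned 90.1% and 98.7%.

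Across the transcriptome, 6847 genes were measured, meaning that a UMI was found in at least 2% of neutrophils on average over the libraries. The level of a gene means its UMIs per 10000 averaged over neutrophils, and a gene was counted as higher or lower where the ratio of the levels, CIN_high over CIN_low, passed 1.5-fold. By that line 1608 genes were higher (23.5%) and 370 lower (5.4%) in CIN_high neutrophils. The median log2 ratio over all measured genes was 0.27, and 0.25 in cells with at least 200 calprotectin UMIs per 10000. Relative to that median 685 genes were higher and 748 lower. The 20 most abundant genes took 34.2% of UMIs in CIN_high and 38.7% in CIN_low neutrophils. In C1q-positive myeloid cells the median was 0.01, with 3.12% of 10010 genes higher and 3.31% lower. In myeloid cells with Csf3r at 0 and fewer than 2 C1q genes it was 0.25 over 9015 genes, near that of neutrophils. Of those cells 5.66% in CIN_high and 26.6% in CIN_low reached 200 calprotectin UMIs per 10000, so that group holds missed neutrophils in unequal shares. The background thus differed between kinds of cell, and a gene list in neutrophils is read against that of the neutrophils. In a simulation on these cells, 7.48% of unchanged genes passed the line by counting error, 48.5% of genes changed by exactly 1.5-fold passed it, and 92.2% of those changed by 2-fold.

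Of the 12 genes named for the largest ratio downward, the first 3 were chemokines, Ccl3, Ccl4 and Cxcl3. Of 18 measured genes in the list of chemokines and cytokines that neutrophils release, 7 were lower and 2 higher in CIN_high neutrophils (all genes: 5.4% and 23.5%), with a median log2 ratio of -0.47 against 0.27 over all genes. Relative to the median of all genes, 13 were lower and 1 higher. Ccl3, which draws monocytes and lymphocytes, averaged 1.09 UMIs per 10000 in CIN_high and 10.3 in CIN_low neutrophils, 9.46-fold lower in CIN_high (9.15 to 12; intervals belong to the ratio of summed UMIs, which weights deep cells more and can lie to one side of the ratio of levels). Its neighbour Ccl4, also a chemokine for monocytes and lymphocytes, averaged 3.98 in CIN_high and 24.7 in CIN_low neutrophils, 6.21-fold lower (6.21 to 7.16). In mm10 Ccl3 lies at chr11:83647844-83649355 on the minus strand and Ccl4 at chr11:83662584-83664683 on the plus strand. Cxcl3, a ligand of Cxcr2, averaged 5.72 in CIN_high and 31.2 in CIN_low neutrophils, 5.45-fold lower (4.71 to 5.26). Its relative Cxcl2, the most abundant of the list, averaged 91.3 in CIN_high and 190.0 in CIN_low neutrophils, 2.08-fold lower (2.202 to 2.27).

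The interleukin 1 genes differed by less where they were most abundant. Il1b averaged 83.04 UMIs per 10000 in CIN_high and 108 in CIN_low neutrophils, 1.30-fold lower and short of the line, though past it relative to the median of all genes (log2 -0.65). Il1a averaged 2.13 and 6.47, 3.03-fold lower in CIN_high (2.53 to 3.00), and the receptor antagonist Il1rn 3.68 and 10.5, 2.86-fold lower (2.41 to 2.77). Osm, a cytokine of the interleukin 6 family, stood at 1.95 in CIN_high and 3.82 in CIN_low neutrophils (1.96-fold lower), and Il23a was also past the line (log2 ratio -1.08), but not in cells with calprotectin at 200 (-0.53). Tnf, at 1.91 in CIN_high and 2.49 in CIN_low neutrophils, was not. The 2 genes past the line upward were Csf1, the macrophage growth factor, at 1.85 and 1.06 (1.74-fold), and Tnfsf14, a ligand of the TNF family, at 0.364 and 0.179 (2.03-fold). In cells with calprotectin at 200, where 8.35% of 5638 measured genes were lower and 24.6% higher, the list stood at -0.53, with 8 of 17 genes lower and 2 higher.

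**Figure D2:**
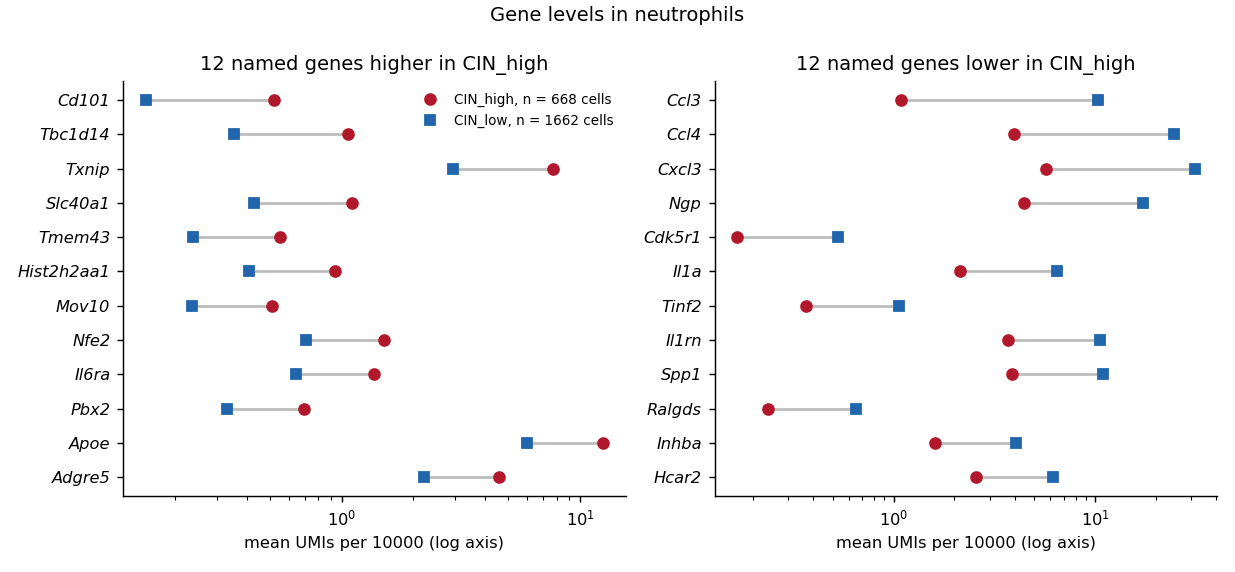
Mean level in CIN_high (red circles) and CIN_low (blue squares) neutrophils of the 12 named genes with the largest ratio in each direction, in UMIs per 10000 on a log axis. Ccl3, Ccl4 and Cxcl3 head the genes lower in CIN_high, at 1.09, 3.98 and 5.72 in CIN_high and 10.3, 24.7 and 31.2 in CIN_low; most genes higher in CIN_high lie below 2 UMIs per 10000.

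At equal depth a UMI of these chemokines was also found in a smaller share of CIN_high neutrophils. Such a share depends on the level per cell too, so fewer carrying cells and less RNA per cell were not told apart. After thinning to 1500 UMIs, a Ccl3 UMI was found in 6.96% (5.04% to 9.33%) of 589 CIN_high and 32.1% (29.8% to 34.5%) of 1563 CIN_low neutrophils, against 0.990% and 5.75% of T and NK cells thinned alike; unthinned, the neutrophil shares were 11.2% and 44.2%. NK cells can make Ccl3 and Ccl4 themselves. For Ccl4 the thinned shares were 15.8% (12.9% to 19.0%) in CIN_high and 42.5% (40.02% to 45.0%) in CIN_low neutrophils, against 1.98% and 8.77% of T and NK cells. For Cxcl3 they were 18.8% and 49.9%, against 1.49% and 10.4%. Cxcl2 was found in most neutrophils of both classes, at 81.8% and 95.9%, against 7.92% and 30.1% of T and NK cells. Unthinned, the neutrophil shares were 21.7% (CIN_high) and 52.1% (CIN_low) for Ccl4, 22.5% and 59.7% for Cxcl3, and 88.9% and 97.8% for Cxcl2. In all cells, the upper quartile of Ccl4 was 0 UMIs per 10000 in CIN_high and 21.1 in CIN_low neutrophils, and the top cells reached 185 and 703. Neutrophils held 7.96% of all Ccl3 UMIs of the CIN_high library and 35.8% of those of the CIN_low library, and 12.1% and 41.0% of Ccl4, whereas they held 84.2% and 76.1% of S100a8.

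**Figure D3:**
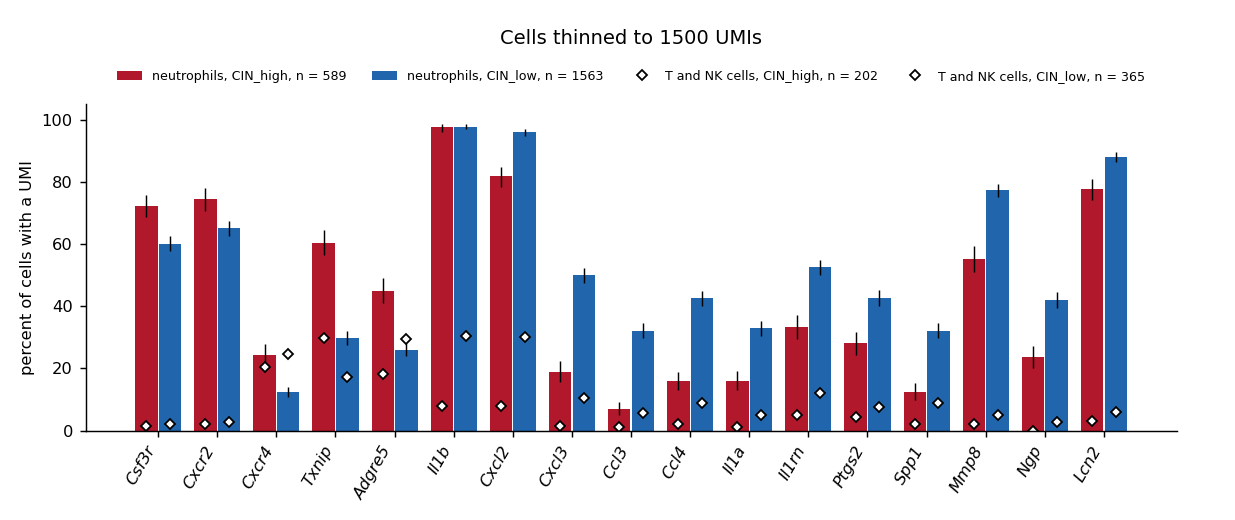
Percent of neutrophils with at least 1 UMI of each gene after every cell was thinned to 1500 UMIs, for CIN_high (red) and CIN_low (blue); bars start at 0, error bars are exact 95% counting intervals, and white diamonds give the same share in T and NK cells of that library. Chemokine and granule genes lie lower in CIN_high (Ccl3 at 6.96% and 32.1%), whereas Txnip and Cxcr2 lie higher (Txnip at 60.4% and 29.7%).

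The same chemokines were lower in the C1q-positive myeloid cells of the CIN_high library. In C1q-positive myeloid cells the log2 ratios were -1.22 for Ccl3, -0.76 for Ccl4, -1.47 for Cxcl3 and -0.83 for Cxcl2, against -3.24, -2.64, -2.45 and -1.06 in neutrophils. In myeloid cells with Csf3r at 0 and fewer than 2 C1q genes the ratios were -2.02, -2.48, -1.57 and -1.44, in the same order. In that group 5.66% of CIN_high and 26.6% of CIN_low cells had calprotectin at 200, and their part in these ratios was not tested. Epithelial cells stood at -3.09, -2.05, -2.13 and -1.0007, and T and NK cells at -4.41, -2.19, -2.15 and -1.75. The part of free RNA in these ratios was not tested. The list had 8 of 19 genes lower and 0 higher (all genes: 3.31% and 3.12%) and a median of -0.39 in the C1q-positive cells, where the median of all genes was 0.01. Whether the ratios differ between the cell types could not be tested with 1 library per class.

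The genes that answer to the transcription factor NF-kB, which drives many chemokine genes after microbial or cytokine signals, lay on the same side. Of 23 measured genes 6 were lower and 0 higher by the 1.5-fold line (all genes: 5.4% and 23.5%). A log2 ratio below 0 was found for 20 of them, and the median was -0.40. Relative to the median of all genes 14 of the 23 were lower and 0 higher. Ptgs2, the inducible prostaglandin synthase, averaged 3.897 UMIs per 10000 in CIN_high and 8.37 in CIN_low neutrophils, 2.15-fold lower (1.68 to 1.92). The subunit gene Nfkb1 stood at 1.80 in CIN_high and 3.64 in CIN_low neutrophils (2.02-fold lower), and the mitochondrial superoxide dismutase Sod2 at 2.13 and 4.12 (1.93-fold lower). The inhibitor gene Nfkbia, a rapid target, was at 19.7 in CIN_high and 19.3 in CIN_low neutrophils, and Tnfaip3, which ends the signal, at 3.15 and 3.81. In C1q-positive myeloid cells the median of the list was -0.02. In myeloid cells with Csf3r at 0 and fewer than 2 C1q genes it was -0.36, near the value in neutrophils. The part of the cells with calprotectin at 200 in that value, 5.66% of the group in CIN_high and 26.6% in CIN_low, was not tested.

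The promoters of Cxcl3 and Cxcl2, neighbours on chromosome 5 that were both lower, are printed because each holds a match to an NF-kB motif (the kB motif, GGGA and TTCC with 2 bases of any kind between them, searched on both strands over the 250 bases before the start). The 150 bases before the RefSeq start are given 5′ to 3′ on the plus strand (GRCm38.p6, that is mm10), at chr5:90785951-90786100 for Cxcl3 and chr5:90903749-90903898 for Cxcl2. Capitals mark the matches, 1 on each strand, which overlap and begin at bases -73 and -72 of Cxcl3 and -97 and -96 of Cxcl2, the last base before the start being -1.
Cxcl3: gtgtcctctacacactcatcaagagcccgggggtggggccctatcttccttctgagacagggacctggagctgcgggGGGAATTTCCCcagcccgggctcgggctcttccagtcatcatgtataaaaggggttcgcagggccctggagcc
Cxcl2: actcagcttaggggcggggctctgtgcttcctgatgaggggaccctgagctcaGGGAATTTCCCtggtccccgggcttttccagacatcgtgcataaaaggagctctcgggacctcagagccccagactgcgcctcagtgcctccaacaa
The motif was found in 397 of 32851 mouse promoters of the RefSeq table (1.21%). Of the 12 named genes lower in CIN_high neutrophils 9 had a promoter in the table, and 1 of them, Cxcl3, held the motif. Of the 18 measured chemokine and cytokine genes 14 had a promoter and 5 held the motif: Cxcl1, Cxcl2, Cxcl3, Cxcl10 and Csf1, the last of which was higher in CIN_high. A match is a description of the sequence and not evidence of binding.

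Secondary granule genes were also lower in part. Of 14 measured genes 6 were lower and 1 higher in CIN_high neutrophils (all genes: 5.4% and 23.5%), with a median log2 ratio of -0.41. Relative to the median of all genes 7 of the 14 were lower and 0 higher. The list reached from -4.74 for Ltf to 0.69 for Chil3. Ngp, a granule protein of the cathelicidin family, averaged 4.42 UMIs per 10000 in CIN_high and 17.3 in CIN_low neutrophils, 3.91-fold lower (3.69 to 4.15). The collagenase Mmp8 averaged 10.7 in CIN_high and 23.1 in CIN_low neutrophils, 2.17-fold lower (1.97 to 2.15), and the iron-siderophore binder Lcn2 38.7 and 65.0, 1.68-fold lower. Camp averaged 0.191 in CIN_high and 1.97 in CIN_low neutrophils (10.3-fold lower, 7.36 to 12.6), and Ltf 0.0869 and 2.32 (26.7-fold lower, 20.7 to 52.6), from 20 and 2134 Ltf UMIs. The size of both differences depended on the Csf3r condition. With calprotectin in its place the log2 ratios were -2.22 for Camp and -2.48 for Ltf, against -3.37 and -4.74 by the rule. Hp, Pglyrp1 and Lyz2, also granule proteins, stayed within the line at log2 ratios of 0.14, -0.03 and 0.17. Chil3, the member past the line upward, stood at 7.59 in CIN_high and 4.69 in CIN_low neutrophils, but at 1.44 and 2.93 in cells with calprotectin at 200 (log2 -1.02). In those cells the list had 8 of 14 genes lower and 0 higher (all genes: 8.35% and 24.6%) and a median of -0.68. Secondary granule genes were lower in C1q-positive myeloid cells as well, with a median of -1.08 over 12 genes at levels such as 0.0736 (CIN_high) and 0.327 (CIN_low) for Ngp. The S100a8 UMIs in T and NK cells given above moved the same way, and the part of free RNA in these ratios was not tested.

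Few cells of the CIN_low library held most of the Ltf and Camp UMIs. At least 3 Ltf UMIs, a line set after the values were seen, were held by 1 of 668 CIN_high neutrophils (0.150%, 0.00379% to 0.831%) and 61 of 1662 CIN_low neutrophils (3.67%, 2.82% to 4.69%). These counts cover the rule's members only. Myeloid cells with Csf3r at 0 and fewer than 2 C1q genes averaged 0.439 (CIN_high) and 1.79 (CIN_low) Ltf UMIs per 10000. The 61 cells held 97.0% of the Ltf, which chose them, and 93.7% of the Camp and 52.2% of the Ngp UMIs of CIN_low neutrophils. Another gene of the secondary granule list, Cd177, a surface partner of proteinase 3, stood at 17.0 UMIs per 10000 in them against 3.92 in the other CIN_low neutrophils. The 61 cells were lower in Il1b (39.5 against 110) and Cxcl2 (78.4 against 194), and similar in Retnlg (298 against 309) and Cxcr2 (10.6 against 11.0). Mpo and Elane, the primary granule genes for myeloperoxidase and elastase, had 0 UMIs in them, a count that allows up to 3. Mki67, a proliferation marker, had 6 UMIs in all 61 cells. Without cells of at least 3 Ltf UMIs, Ngp was past the line at a log2 ratio of -1.34 and Mmp8 at -1.11, whereas Camp stood at -0.25, inside it. Ltf stood at -0.51, a value that follows from leaving cells out by their Ltf UMIs.

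The promoters of Ngp and Ltf are shown because they carry matches to a C/EBP motif, C/EBP factors being the family that drives secondary granule genes (TTGCNNAA, N being any base, on both strands). The 150 bases before the RefSeq start are given on the plus strand of GRCm38.p6, at chr9:110419658-110419807 for Ngp and chr9:111019142-111019291 for Ltf. Capitals mark the matches, which begin at bases -138 and -11 of Ngp and -75 of Ltf.
Ngp: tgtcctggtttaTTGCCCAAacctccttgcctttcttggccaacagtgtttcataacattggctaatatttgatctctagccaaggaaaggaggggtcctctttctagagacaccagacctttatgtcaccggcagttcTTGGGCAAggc
Ltf: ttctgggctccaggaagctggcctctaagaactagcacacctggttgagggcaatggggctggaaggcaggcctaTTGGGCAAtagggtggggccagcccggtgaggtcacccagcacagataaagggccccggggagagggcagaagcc
This motif is common, with matches in 3142 of the 32851 promoters (9.56%). Of the 9 named lower genes with a promoter, 4 held it (Ngp, Inhba, Ralgds and Spp1). Of the 14 measured secondary granule genes 13 had a promoter, and 5 held the motif (Ngp, Ltf, Lcn2, Mmp8 and Anxa1). The other 8, Camp among them, held no match.

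Of 9 measured tertiary granule and secretory vesicle genes 1 was lower and 0 higher (all genes: 5.4% and 23.5%), with a median of -0.39. Relative to the median of all genes 5 were lower and 0 higher (all genes: 748 and 685 of 6847). The 1 lower gene was the endotoxin co-receptor Cd14, which averaged 49.2 (CIN_high) and 75.6 (CIN_low) UMIs per 10000. In cells with calprotectin at 200 Cd14 was within the line (log2 -0.56). The gelatinase Mmp9 stood at 10.2 and 8.94. The 2 primary granule genes that were measured went to either side: Mgst1 had a log2 ratio of -0.13, and Prtn3, at 0.0671 in CIN_high and 0.0248 in CIN_low neutrophils, was higher.

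**Figure D4:**
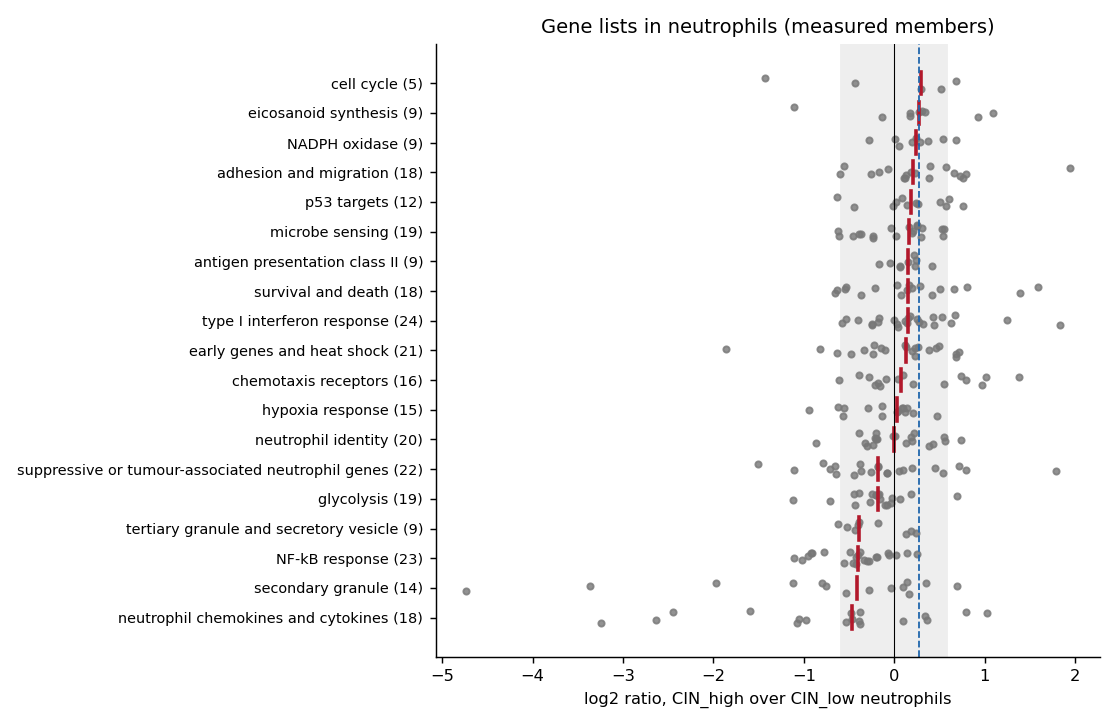
Log2 ratio, CIN_high over CIN_low neutrophils, of the measured members (grey points, n in brackets) of each pathway or function list with 5 or more of them (lists of other cell types are not drawn); red bars are list medians, the dashed blue line is the median of all measured genes (0.27) and the grey band spans 1.5-fold either way. Chemokines and cytokines, secondary granule, NF-kB, and tertiary granule lists have medians between -0.47 and -0.39; the other lists drawn have medians between -0.18 and 0.29.

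Receptors for chemotaxis and adhesion had more genes past the line upward than downward, as had all genes (23.5% and 5.4%). Of 16 measured chemotaxis receptors 5 were higher and 1 lower, with a median of 0.07, and relative to the median of all genes 3 were higher and 2 lower. Csf3r, on which every cell was selected, is 1 of the 5 but not of the 3. Cxcr4, a receptor that holds neutrophils in the marrow and that ageing neutrophils regain, averaged 2.05 UMIs per 10000 in CIN_high and 1.01 in CIN_low neutrophils, 2.03-fold higher (1.66 to 2.12). Cxcr2 averaged 16.1 in CIN_high and 11.0 in CIN_low neutrophils, 1.47-fold higher and just short of the line (log2 0.28 relative to the median), but 19.0 and 12.3 in cells with calprotectin at 200, 1.54-fold higher and past it. Cxcr1 averaged 0.609 in CIN_high and 0.351 in CIN_low neutrophils, 1.74-fold higher. Csf3r averaged 11.4 in CIN_high and 6.84 in CIN_low neutrophils, but the rule required a Csf3r UMI of every cell, which a shallow cell reaches only at a higher level. When membership was decided on cells thinned to 1500 UMIs its log2 ratio was 0.34 in place of 0.74. Of 18 adhesion and migration genes 5 were higher and 1 lower: the integrin subunit Itga4 at 1.59 in CIN_high and 0.412 in CIN_low neutrophils (3.86-fold), Selplg, the ligand of the selectins, at 5.90 and 3.49, and Itgal at 3.00 and 1.89 were among the higher. Relative to the median of all genes 1 of the 18 was higher and 2 were lower, with a median of -0.06.

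The genes with the largest ratio upward, by the rule stated under processing, belonged to no single list. Cd101, a surface protein of mature mouse neutrophils, averaged 0.522 UMIs per 10000 in CIN_high and 0.151 in CIN_low neutrophils, 3.45-fold higher (2.15 to 3.95). Txnip, which binds thioredoxin and limits glucose uptake, averaged 7.66 in CIN_high and 2.93 in CIN_low neutrophils, 2.61-fold higher (2.39 to 2.73). The iron exporter Slc40a1 averaged 1.10 and 0.429 (2.57-fold), the interleukin 6 receptor Il6ra 1.37 and 0.643 (2.13-fold), and the adhesion receptor Adgre5 (CD97) 4.58 and 2.22 (2.06-fold). Tbc1d14, Tmem43, Mov10, Nfe2, Pbx2 and the histone gene Hist2h2aa1, which has a near-identical copy, were between 2.1-fold and 3.01-fold higher. Apoe was 2.08-fold higher over all members, at 12.4 in CIN_high and 5.99 in CIN_low, but its direction turned in cells with calprotectin at 200, at 2.27 and 2.60 (log2 -0.20).

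Among the other genes with the largest ratio downward, Spp1, the secreted matrix protein osteopontin, averaged 3.86 UMIs per 10000 in CIN_high and 11.0 in CIN_low neutrophils, 2.84-fold lower (1.65 to 1.85). In cells with calprotectin at 200 it stood at 2.32 and 11.6. Inhba, the subunit of activin A, averaged 1.61 in CIN_high and 4.05 in CIN_low neutrophils (2.52-fold lower, 1.73 to 2.03), and 0.180 and 1.68 in cells with calprotectin at 200. Tinf2, a protein of the shelterin complex at telomeres, averaged 0.367 and 1.06 (2.89-fold lower, 2.22 to 3.58). Hcar2, a receptor for niacin and ketone bodies, averaged 2.55 and 6.20 (2.43-fold lower), and Cdk5r1 and Ralgds were 3.15-fold and 2.73-fold lower at levels under 1 UMI per 10000.

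Of 22 measured genes reported for suppressive or tumour-associated neutrophils, 6 were lower and 3 higher (all genes: 5.4% and 23.5%), with a median of -0.18. Relative to the median of all genes 9 were lower and 1 higher (-0.45). In cells with calprotectin at 200, 7 were lower and 4 higher (all genes: 8.35% and 24.6%). Acod1, which makes itaconate, averaged 21.0 UMIs per 10000 in CIN_high and 36.2 in CIN_low neutrophils (1.72-fold lower), and the inducible nitric oxide synthase Nos2 0.915 and 1.495 (1.63-fold lower). Cd274, the checkpoint ligand PD-L1, stood at 1.83 in CIN_high and 2.38 in CIN_low neutrophils, and Arg2 at 3.57 and 4.04, both within the line. Arg1, the other arginase, stood at 2.27 in CIN_high and 1.67 in CIN_low neutrophils over all members, and at 0.156 and 0.627 in cells with calprotectin at 200, where it was lower (log2 -2.01). Vegfa, the vessel growth factor, was at 1.27 and 1.20 over all members and at 0.439 and 0.617 in those cells, within the line both times. Siglecf, a lectin of eosinophils and of neutrophils in some mouse tumours, had 5 UMIs in CIN_high and 15 in CIN_low neutrophils.

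Interferon and metabolic genes gave smaller differences. Over all measured genes 23.5% were higher and 5.4% lower. Of the 24 genes of the type I interferon response that were measured, 4 passed the line upward and 0 downward, with a median of 0.15; relative to the median of all genes 2 were higher and 3 lower (-0.13). Slfn5 averaged 1.01 UMIs per 10000 in CIN_high and 0.652 in CIN_low neutrophils. Ifit3 and Ifit3b, near-identical copies between which reads can be split, were also past the line. Of 19 glycolysis genes 2 were lower (the hexokinase Hk1, log2 -1.12, and the glucose transporter Slc2a3, -0.71) and 1 higher (Pfkfb4), with a median of -0.18; relative to the median of all genes 5 were lower and 0 higher (-0.45). Of 15 hypoxia genes 2 were lower, Hilpda at 2.12 in CIN_high and 4.08 in CIN_low neutrophils and Ero1l, with a median of 0.03; relative to the median of all genes 4 were lower and 0 higher (-0.24). NADPH oxidase genes, which make the oxidative burst, had 1 of 9 higher and 0 lower, with a median of 0.24, and 0 past the line either way relative to the median of all genes (-0.04). In cells with calprotectin at 200, 1 of 8 was higher and 1 lower (all genes: 24.6% and 8.35%). The lower gene was the catalytic subunit Cybb, at 1.03 in CIN_high and 2.03 in CIN_low (log2 -0.98, against -0.28 over all members).

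The remaining lists had medians between -0.28 and 0.02 relative to the median of all genes. Over all 6847 measured genes 23.5% were higher and 5.4% lower, and relative to their median 685 were higher and 748 lower. Survival and death genes had 4 of 18 higher and 2 lower (median 0.15), among them the death agonists Bid (log2 1.59) and Bcl2l11 (-0.66). Early response and heat shock genes, which dissociation can switch on, had 3 of 21 higher and 3 lower (median 0.13), with Fosl1 at 0.344 in CIN_high and 1.25 in CIN_low neutrophils. Microbe sensing genes had 0 of 19 higher and 2 lower (median 0.16), but 3 higher (Ly96, Clec4n and Clec5a) and 0 lower in cells with calprotectin at 200 (median 0.04). Among p53 targets 2 of 12 were higher and 1 lower (median 0.19), among eicosanoid genes 2 of 9 and 1 (0.27), and among cell cycle genes 1 of 5 and 1 (0.29). Relative to the median of all genes, 0 were higher and 5 lower in the early response list and in the microbe sensing list, 2 higher and 5 lower in the survival list, 0 and 2 in the p53 and in the cell cycle list, and 2 and 1 in the eicosanoid list. In cells with calprotectin at 200, 24.6% of all measured genes were higher and 8.35% lower. There the survival list had 5 higher and 3 lower, the early response list 3 and 4, and the cell cycle list 1 and 2. The 9 measured class II antigen presentation genes had none past the line and a median of 0.16, but in cells with calprotectin at 200 4 of 7 were lower and the median was -0.59. The neutrophil identity list itself had 1 of 20 higher (Csf3r, on which the cells were selected) and 1 lower. The lower gene was G0s2, a lipolysis inhibitor, at 38.8 in CIN_high and 70.8 in CIN_low neutrophils. In this list 0 were higher and 3 lower relative to the median of all genes, and 3 higher and 1 lower in cells with calprotectin at 200.

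Within each library, neutrophils with more granule UMIs tended weakly to hold fewer chemokine UMIs. Over cells thinned to 1500 UMIs, a secondary granule sum and a chemokine and cytokine sum had Spearman's rho of -0.29 over 589 CIN_high cells and -0.26 over 1563 CIN_low cells, and -0.33 and -0.38 among cells with calprotectin at 200. The granule sum went with Retnlg, which is not in that list, at 0.40 in CIN_high and 0.50 in CIN_low cells. The chemokine sum went with the hypoxia sum at 0.30 and 0.13, and the granule sum against it at -0.24 and -0.27. The interferon sum went with neither, at 0.01 and 0.0003 for the granule sum and 0.10 and 0.09 for the chemokine sum. These values describe cells that share a library and a fixed number of UMIs, and the weaker ones are no finding in counts this sparse. The median chemokine sum was 25 UMIs in CIN_high and 51 in CIN_low cells, and the median granule sum 21 and 27.

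**Figure D5:**
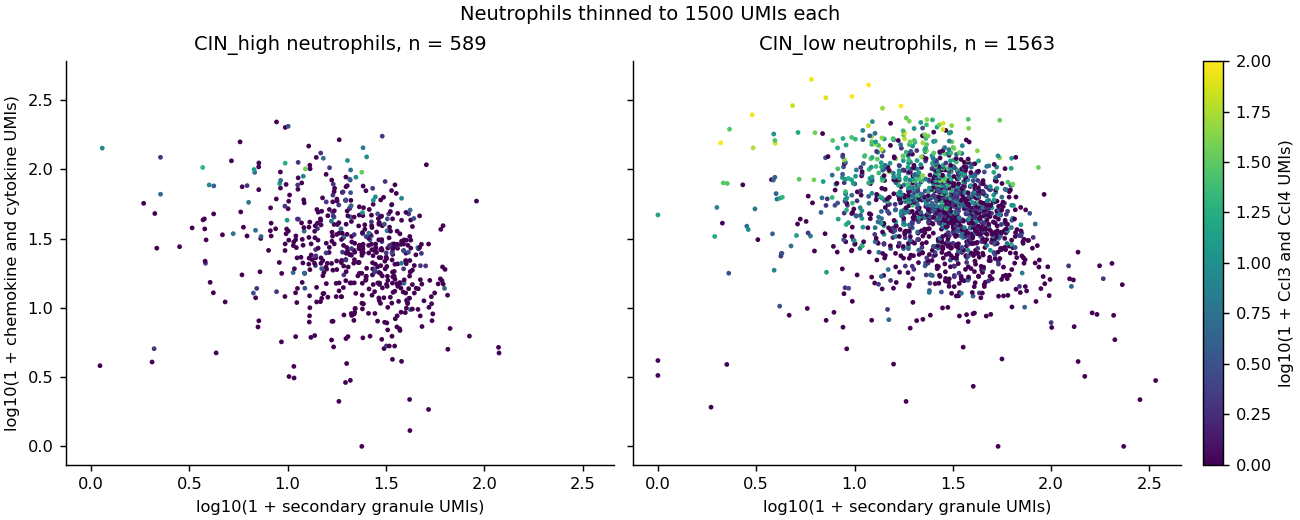
Each point is 1 neutrophil thinned to 1500 UMIs, CIN_high left and CIN_low right, by the log10 of 1 plus its secondary granule UMIs (x axis) and chemokine and cytokine UMIs (y axis), with a small shift added so that equal counts do not hide each other; colour is the log10 of 1 plus its Ccl3 and Ccl4 UMIs, which are also part of the y axis sum. CIN_low cells lie higher on the y axis (median 51 UMIs, against 25 in CIN_high), cells rich in Ccl3 and Ccl4 lie at the top, and the few cells far to the right are found mainly in CIN_low.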

How the data were processed

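The authors deposited 1 matrix for both libraries, 14097 cells by 21041 genes, with a class and a cell type per cell; per the submitters' processing notes they used mm10, Cell Ranger 2.1.1 and Seurat. The sources used here do not give aligner settings, annotation or cell filters, and cell types are the authors'. The deposited values are on a natural log scale, ln(1 + UMIs per 10000), since their exponentials minus 1 add up to 10000 in each cell. Dividing by a cell's lowest value above 0 gave whole numbers within 0.01 for 100% of the values, and these were used as UMIs. The written plan allowed for this unit and used linear means over cells.

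The members and gene lists were chosen with earlier results of these data known, so no list supports a direction independently. Named genes were the 12 with the largest ratio each way among those with a UMI in at least 10% of neutrophils, a level of at least 0.5 in the class where it was higher, 30 UMIs over both classes, and a level at least 2 times that of epithelial and of T and NK cells of the library; left out were ribosomal, mitochondrial, hemoglobin, predicted and receptor segment genes and those used for sex checks. A set of genes of interest was always given. Intervals are exact: conditional binomial for ratios of summed UMIs and Clopper-Pearson for shares, at 95%.

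Doublets were called per library with Scrublet (Scanpy 1.11.5; expected rate 6%) (136 CIN_high cells, 2.20%, and 262 CIN_low cells, 3.31%) and kept in the main values. The ratio step was tested on simulated neutrophils with known changes (6894 genes). Thinning left out 79 CIN_high and 99 CIN_low neutrophils under 1500 UMIs. Gene positions are from the GENCODE annotation of mm10 (98.2% of genes matched) and promoters from RefSeq. Alternatives changed the membership rule, the scaling, the centring, the depth range, the filter and the fold line. A few genes, and 1 further version of the membership rule, are not reported here. Software was SciPy 1.17.1, pandas 2.3.3, numpy 2.4.6 and matplotlib 3.10.9 under Python 3.11.15.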

Additional observations from a re-analysis of the deposited data

Results flagged for a closer look

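The list of mast cell and basophil markers lay on opposite sides in the 2 kinds of myeloid cell, at a log2 ratio (CIN_high over CIN_low) of 0.72 in neutrophils and -0.69 in C1q-positive myeloid cells. In neutrophils it rests on 1 measured gene, the growth factor receptor Kit, at 0.293 (CIN_high) and 0.178 (CIN_low) UMIs per 10000. The difference was not tested.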

How the results depend on the processing

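No paired analysis was possible because each class is 1 library; for the same reason none could be left out. Definitions added after the data were seen were the rule with calprotectin at 200, calprotectin in place of Csf3r, and the rule without cells of at least 3 Ltf UMIs. The share was lower in CIN_high under each definition given here: 7.64% in CIN_high and 12.999% in CIN_low with at least 2 Csf3r UMIs, 9.42% and 23.2% with calprotectin in place of Csf3r, 7.40% and 12.3% with membership set after thinning to 1500 UMIs, 9.19% and 16.7% without any C1q gene, and 8.73% and 18.3% with the rule and calprotectin. The counts of higher and lower genes were 396 and 124 at 2-fold, 461 and 132 among genes measured in 10% of cells, 4388 and 1735 with no filter, and 685 and 748 relative to the median; 932 were higher with membership after thinning. The chemokine median was -0.92 with at least 2 Csf3r UMIs, -0.80 with calprotectin in place of Csf3r and -0.74 relative to the median of all genes. On that last scale NF-kB genes stood at -0.68 and hypoxia genes at -0.24. The secondary granule median was -0.64 with calprotectin in place of Csf3r, -0.68 with both, -0.68 relative to the median, -0.28 with no filter, -0.22 without Ltf cells and -0.16 among genes measured in 10% of cells. Of the 24 named genes, Apoe changed sign, to -0.20 with the rule and calprotectin and -0.33 with calprotectin in place of Csf3r. The other 23 kept direction and stayed past 1.5-fold in those settings. The cause of the other moves was not tested. Depth limits genes of few UMIs, such as Siglecf with 5 in CIN_high and 15 in CIN_low neutrophils.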

Other observations

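Some cells that the authors typed as other than myeloid met the neutrophil description, with a Csf3r UMI and at least 200 calprotectin UMIs per 10000. Among epithelial cells there were 7 in the CIN_high and 30 in the CIN_low library, of which Scrublet marked 7 and 21. Among T and NK cells there were 2 and 7, among endothelial cells 5 and 7, and among fibroblasts 6 and 1.

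Ngp had a UMI in 28.6% of CIN_high and 54.3% of CIN_low neutrophils, and a few cells of both libraries reached far higher levels than the rest. The highest Ngp level was 302 UMIs per 10000 in a CIN_high and 694 in a CIN_low cell, while the 90th percentile was 11.3 in CIN_high and 39.5 in CIN_low cells. Txnip was spread more evenly, with quartiles of 1.22, 5.46 and 11.6 in CIN_high and of 0, 1.55 and 4.202 in CIN_low cells.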
